A study of Mus musculus with 9 samples.

Results

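Messenger RNA was measured by sequencing in CD8+ T cells that had infiltrated tumours of B16F10, a mouse melanoma line that is grown in syngeneic hosts. The 9 bulk libraries are of C57BL/6 mice, 4 labelled IL27ra KO, for knockout of the interleukin 27 receptor chain gene, and 5 labelled WT. The labels give no age, no other allele or treatment, no batch and no sorting scheme, and do not say in which cells the receptor gene is deleted. The 38 genes described here were taken by symbol from the 23366 symbols of the deposited table, 16 of them replication genes and 22 mitotic genes. They were listed by symbol, with no threshold on any value. Values are TMM-normalized FPKM, that is fragments scaled to transcript length and library size, which allows levels to be set side by side between genes. All 38 passed the minimum of a mean of 1 FPKM over the 9 libraries that was needed for testing, the lowest means being Cdc6 at 1.52, Ccne2 at 1.87 and Cenpe at 2.16 FPKM.

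Dividing cells switch on these genes in 2 waves. Before and during DNA synthesis, E2F transcription factors drive the helicase, nucleotide synthesis and cyclin E genes that load and fire replication origins. Towards mitosis, the DREAM complex gives way to B-MYB and FOXM1, which act through promoter elements called CHR, and the mitotic cyclins, kinases and spindle proteins appear; the anaphase-promoting complex then removes many of them. Activated CD8+ T cells divide fast, and both waves are widely used as signs of their proliferation. Any dividing cell transcribes the same genes, tumour cells and macrophages included, so a bulk value cannot be assigned to 1 cell type.

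To show what separates both waves in sequence, 4 promoters are printed, picked after the matches had been seen: Mcm6 and Mcm5 for replication, Cdk1 and Cdc20 for mitosis. Each window runs from 250 bases before to 50 bases after the RefSeq gene start in build GRCm38.p6, 5′ to 3′ on the gene's own strand. Capitals mark the E2F words TTTGGCGC, TTTCGCGC, TTTCCCGC and TTTGCCGC and the CHR words TTTGAA and TTCGAA, on either strand. The windows are chr1:128359656-128359955 on the minus strand for Mcm6, chr8:75109259-75109558 on the plus strand for Mcm5, chr10:69352863-69353162 on the minus strand for Cdk1 and chr4:118437294-118437593 on the minus strand for Cdc20.
Mcm6: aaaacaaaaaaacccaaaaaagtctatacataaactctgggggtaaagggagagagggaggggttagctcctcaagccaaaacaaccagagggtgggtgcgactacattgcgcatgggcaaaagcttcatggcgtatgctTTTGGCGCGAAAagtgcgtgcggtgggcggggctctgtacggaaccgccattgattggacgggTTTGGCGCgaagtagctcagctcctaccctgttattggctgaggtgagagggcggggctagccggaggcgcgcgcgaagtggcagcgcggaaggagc
Mcm5: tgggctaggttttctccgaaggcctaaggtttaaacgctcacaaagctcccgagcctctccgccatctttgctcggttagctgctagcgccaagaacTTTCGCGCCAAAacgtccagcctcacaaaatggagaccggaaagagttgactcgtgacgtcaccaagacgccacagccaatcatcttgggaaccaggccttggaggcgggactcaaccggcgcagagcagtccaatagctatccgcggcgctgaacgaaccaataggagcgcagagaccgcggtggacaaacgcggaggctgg
Cdk1: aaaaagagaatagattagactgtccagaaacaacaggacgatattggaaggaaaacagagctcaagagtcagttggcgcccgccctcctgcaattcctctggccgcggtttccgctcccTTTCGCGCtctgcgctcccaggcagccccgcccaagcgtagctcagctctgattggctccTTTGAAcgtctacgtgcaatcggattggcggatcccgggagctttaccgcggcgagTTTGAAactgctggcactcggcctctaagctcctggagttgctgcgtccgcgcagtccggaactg
Cdc20: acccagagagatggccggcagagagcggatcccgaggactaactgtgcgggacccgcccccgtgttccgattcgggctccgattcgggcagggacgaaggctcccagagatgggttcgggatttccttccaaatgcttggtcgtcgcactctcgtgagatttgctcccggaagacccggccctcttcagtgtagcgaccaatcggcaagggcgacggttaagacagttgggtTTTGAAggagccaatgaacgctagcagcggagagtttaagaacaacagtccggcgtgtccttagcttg
In Mcm6 and Mcm5 a word on one strand overlaps a word on the other and both lie in 1 run of capitals. Counted singly, Mcm6 held 3 E2F words, Mcm5 held 2, Cdk1 held 1 E2F word and 2 CHR words, and Cdc20 held 1 CHR word.

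An E2F word lay in 6 of the 13 replication genes that had a window (46.2%), in 1 of 18 mitotic genes (5.56%) and in 704 of all 27025 genes with a window (2.61%). A CHR word lay in 14 of the 18 mitotic genes (77.8%), in 2 of the 13 replication genes (15.4%) and in 21.7% of all genes with a window. Within the last 50 bases before the start or after it, 13 of the 14 mitotic genes with a CHR word had one, and 0 of the 2 replication genes did. CCAAT boxes, read on both strands, lay in 16 of 18 mitotic genes (88.9%), in 9 of 13 replication genes (69.2%) and in 41.1% of all genes with a window. A match describes letters and is not a bound site.

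The targeted gene, Il27ra, had 4.09, 6.5, 5.62 and 7.8 FPKM in IL27ra KO replicates 1 to 4, against 25.7, 5.14, 15.2, 14.4 and 15.8 FPKM in WT replicates 1 to 5. Values per library follow this replicate order throughout. The library labelled WT replicate 2 lay inside the IL27ra KO range, and the difference missed the threshold (log2 change -1.10, adjusted p = 0.0996). Differences here are IL27ra KO minus WT on log2(FPKM + 1), tested with limma over all 10374 genes that passed the filter and adjusted by the Benjamini-Hochberg method, with a threshold of 0.05. Whether each library is from its own animal is not stated in the labels, so a p-value here reflects only how these libraries vary, which may be technical. Spacing of low values implied roughly 2720000 to 4100000 fragments in IL27ra KO libraries and 1860000 to 4370000 in WT libraries.

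Both groups carried T cell RNA together with RNA of other cells. The 14 CD8 T cell markers tested, a list led by the CD3 chains and CD8, summed to 595 to 1493 FPKM in IL27ra KO libraries and 1204 to 1825 FPKM in WT libraries. Their mean log2 level was 5.17, 5.59, 5.44 and 6.45 in IL27ra KO replicates 1 to 4, against 6.16 to 6.73 in WT, so IL27ra KO replicate 4 lay inside the WT range. Of these markers, 2 fell, Cd3e with a log2 change of -1.2 (adjusted p = 0.0317) and Cd8a with one of -1.15 (adjusted p = 0.0421). All 14 lay below 0, with a median log2 change of -0.73, and 9 were lower at an unadjusted p under 0.05. Over all tested genes 3.13% rose and 1.11% fell, and 15.1% had an unadjusted p under 0.05 in either direction. The 20 macrophage and monocyte markers tested summed to 1063 to 1812 FPKM in IL27ra KO libraries and 269 to 596 FPKM in WT libraries. Of these, 18 rose, among them Trem2 (log2 change 2.45), Mrc1 (3.27), Emr1 (3.08), Ms4a7 (2.83) and Csf1r (3.48), with adjusted p of at most 0.00101. The 12 melanoma markers summed to 742 to 1645 FPKM in IL27ra KO libraries and 467 to 1532 FPKM in WT libraries. All 12 had a log2 change above 0, with a median of 0.55. In limma 0 passed and 2 were higher at an unadjusted p under 0.05. The 7 genes listed as B cell and NK cell markers summed to 2.93 to 9.08 FPKM in IL27ra KO libraries and 5.48 to 12.3 FPKM in WT libraries. Of these 3 were tested and Ms4a1 was at 0 in all 9 libraries. The list includes Eomes (log2 change -0.75, adjusted p = 0.299 in limma), which CD8 T cells also express, so this sum is not specific to B and NK cells. The part of these cells in the values below was not tested, and in bulk samples fewer cells of a type and less RNA per cell cannot be told apart.

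None of the 38 cell cycle genes passed the threshold between IL27ra KO and WT. The limma count was 0 of 16 replication genes and 0 of 22 mitotic genes, while 440 of the 10374 tested genes passed, which is 4.24% (325 higher, 3.13%, and 115 lower, 1.11%). Scaling changed how these calls divided by direction, into 291 and 167 (higher and lower) after quantile normalization and into 1193 and 52 after scaling to the CD8 T cell markers. Without IL27ra KO replicate 4 the count over all genes was 632, with none of the 38 among them. At an unadjusted p under 0.05, 1 replication gene was lower (Gmnn), and of the mitotic genes 1 was higher (Aurka) and 2 were lower (Hmgb2 and Stmn1), 4 of 38 in all against 15.1% of all genes. Groups overlapped for every one of the 38, whereas they did not overlap for 6.73% of all tested genes. The 95% confidence interval of the difference lay within 1 unit either way on the log2(FPKM + 1) scale for 13 of 16 replication genes and 17 of 22 mitotic genes. For the other 8, Mcm6, Gmnn, Uhrf1, Ccnb2, Bub1, Stmn1, Hmgb2 and Cenpa, the interval reached further. On this scale 1 unit is a larger ratio in FPKM for genes of low level, such as Cdc6, Ccne2 and Cenpe, so their ratios are less tightly bounded than the interval reads.

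**Figure D1:**
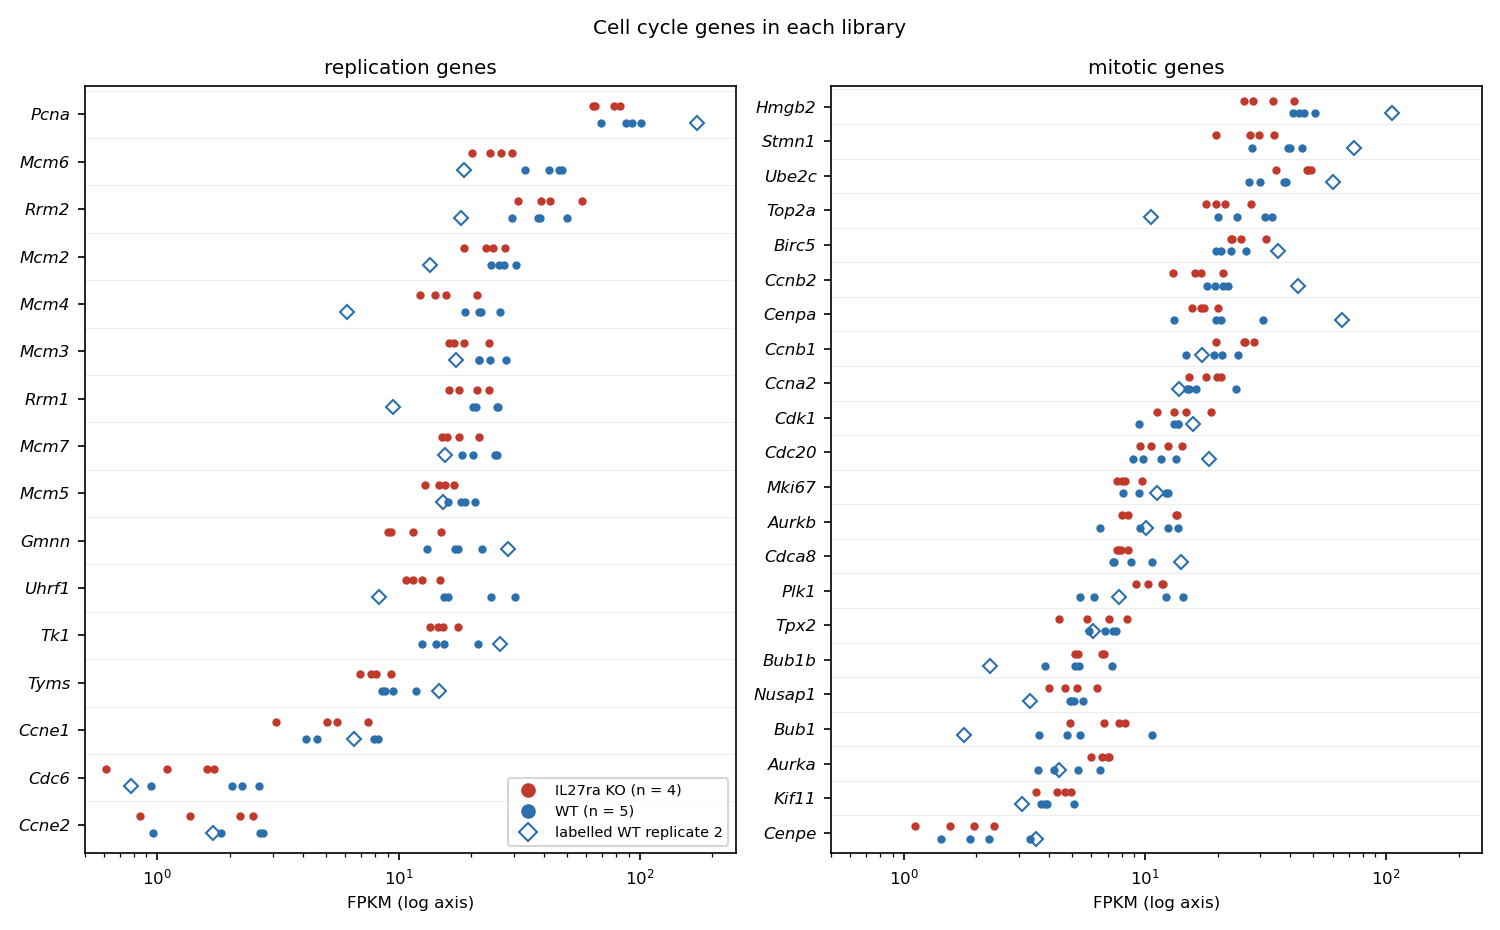
FPKM (log axis) of the 16 replication genes and 22 mitotic genes in every library, genes ordered by the median of the WT libraries. Red points are IL27ra KO libraries, blue points WT libraries and open diamonds the library labelled WT replicate 2. The groups overlap for every gene, and the open diamond is often the outermost WT value, highest for 14 genes and lowest for 16.

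The 2 waves sat differently around 0. Of the replication genes, 14 of 16 had a log2 change below 0, with a median of -0.23 and a range of -0.75 to 0.32. Of the mitotic genes, 10 of 22 were below 0, with a median of 0.06 and a range of -0.73 to 0.48. The median of all tested genes was 0.02. These signs depend on the scaling: with libraries scaled to the CD8 T cell markers 1 of 16 replication genes and 1 of 22 mitotic genes were below 0, with medians of 0.42 and 0.68 beside 0.61 for all genes. Relative to all genes the replication median was therefore -0.18 and the mitotic median 0.07 under that scaling.

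**Figure D2:**
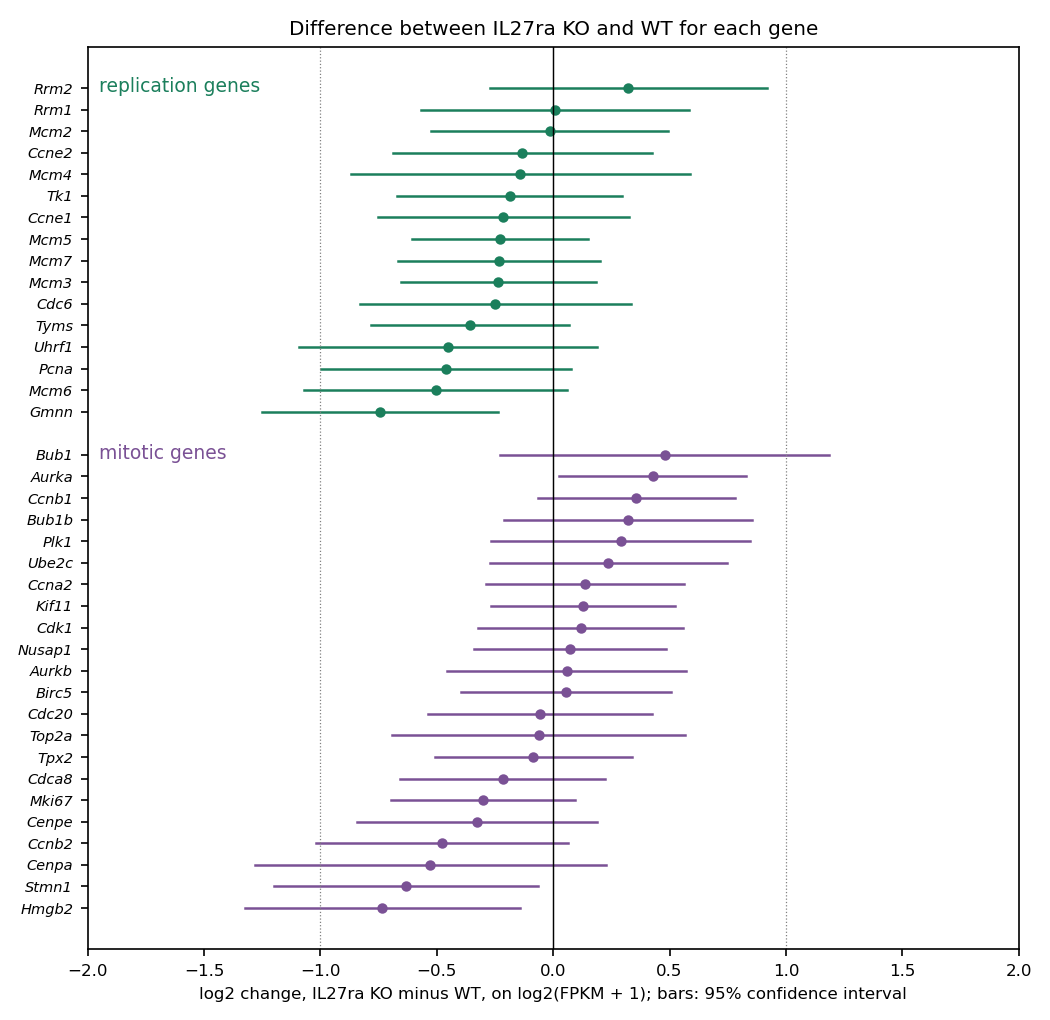
Difference between IL27ra KO and WT on log2(FPKM + 1) for each of the 38 genes, with points for the limma estimate, bars for its 95% confidence interval and dotted lines at 1 unit either way. Replication genes run from -0.75 (Gmnn) to 0.32 (Rrm2) and mitotic genes from -0.73 (Hmgb2) to 0.48 (Bub1).

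The 6 subunits of the MCM helicase, which unwinds DNA at replication forks, all lay below 0, with a median log2 change of -0.23 and adjusted p of at least 0.405. Mcm2 had 23, 27.5, 24.6 and 18.7 FPKM in IL27ra KO, against 26.1, 13.5, 27.3, 30.7 and 24.1 FPKM in WT. Its lowest library was the one labelled WT replicate 2, and the other WT libraries had 24.1 to 30.7 FPKM. Over all 9 libraries the groups overlapped (log2 change -0.02, SE 0.24, adjusted p = 0.988). Mcm5 had 15.7, 17, 12.9 and 14.7 FPKM in IL27ra KO, against 18.8, 15.3, 18.2, 16 and 20.7 FPKM in WT. IL27ra KO replicates 3 and 4 lay below every WT library, and replicates 1 and 2 lay inside the WT range (log2 change -0.23, SE 0.18, adjusted p = 0.613). Mcm6 had 24, 29.5, 20.2 and 26.7 FPKM in IL27ra KO, against 42.2, 18.7, 47.4, 33.4 and 46.1 FPKM in WT. All 4 IL27ra KO values lay below those of WT replicates 1, 3, 4 and 5, and the library labelled WT replicate 2 lay below all of them (log2 change -0.51, SE 0.26, adjusted p = 0.405). Leaving that library out, Mcm6 passed, with a log2 change of -0.73 and an adjusted p of 0.0296, against adjusted p of 0.0296 to 0.733 over all alternatives. Mcm3, Mcm4 and Mcm7 had log2 changes of -0.24, -0.14 and -0.23, with group means of 15.8 to 18.9 FPKM in IL27ra KO and 19.0 to 22.4 FPKM in WT.

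Because the subunits form 1 ring in equal number, their spread inside a library was also read. The most abundant subunit had 1.82 to 2.08 times the FPKM of the least abundant one in IL27ra KO libraries and 2.08 to 3.05 times in WT libraries. The ratio of 3.05 was that of the library labelled WT replicate 2, where Mcm4 had 6.13 FPKM and Mcm6 18.7 FPKM; the other WT libraries had 2.08 to 2.60.

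Licensing of origins is opened by Cdc6, which loads the helicase, and closed by geminin, the product of Gmnn, which blocks reloading until mitosis is over. Cdc6 had 1.09, 1.61, 0.61 and 1.71 FPKM in IL27ra KO, against 2.04, 0.78, 2.64, 0.94 and 2.25 FPKM in WT. The groups overlapped, with WT replicates 1, 3 and 5 above every IL27ra KO library. These levels correspond to as few as about 4 fragments (log2 change -0.25, SE 0.27, adjusted p = 0.75). Gmnn had 9.01, 15, 9.26 and 11.5 FPKM in IL27ra KO, against 17.1, 28.4, 22.2, 13.1 and 17.6 FPKM in WT. IL27ra KO replicates 1, 3 and 4 lay below every WT library, and IL27ra KO replicate 2 lay above WT replicate 4. This was the lowest log2 change among the 38 genes and their lowest adjusted p (-0.75, SE 0.24, adjusted p = 0.109), against adjusted p of 0.0566 to 0.813 over the alternatives. Leaving out the library labelled WT replicate 2, its highest WT value, the log2 change was -0.61 (adjusted p = 0.126).

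Cyclins E1 and E2 activate CDK2 at the entry into S phase. Ccne1 had 5.56, 7.48, 5.03 and 3.09 FPKM in IL27ra KO, against 4.58, 6.53, 7.88, 4.14 and 8.18 FPKM in WT. Ccne2 had 0.85, 2.19, 1.37 and 2.5 FPKM in IL27ra KO, against 2.74, 1.7, 0.96, 1.84 and 2.65 FPKM in WT. Libraries of both groups were interleaved for both genes, with log2 changes of -0.22 (SE 0.25) and -0.13 (SE 0.26) and adjusted p of 0.771 and 0.879. Ccne1 exceeded Ccne2 in all 9 libraries, by 1.24 to 6.54 times in IL27ra KO and by 1.67 to 8.21 times in WT.

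Pcna, the sliding clamp of DNA polymerases, was the most abundant of the 38 genes. Pcna had 63.9, 82.5, 65.2 and 78.3 FPKM in IL27ra KO, against 92.6, 172, 101, 69.3 and 87.4 FPKM in WT. The WT maximum came from the library labelled WT replicate 2, at 1.97 times the mean of the other WT libraries, and IL27ra KO replicates 2 and 4 lay above WT replicate 4 (log2 change -0.46, SE 0.25, adjusted p = 0.433). Uhrf1, which takes part in copying DNA methylation onto new strands, averaged 12.4 ± 1.80 FPKM in IL27ra KO and 18.8 ± 8.54 FPKM in WT (SD, n = 4 and 5). Its log2 change was -0.45 and its adjusted p 0.540. The library labelled WT replicate 2 was lowest, at 8.26 FPKM. Every IL27ra KO value (10.8 to 14.9 FPKM) lay below the other WT libraries (15.4 to 30.3 FPKM). Leaving out the library labelled WT replicate 2, the log2 change of Uhrf1 was -0.70 (limma adjusted p = 0.102).

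The nucleotide synthesis genes did not share a direction, 2 of 4 lying below 0. Tyms, thymidylate synthase, had 7.66, 9.27, 8.03 and 6.91 FPKM in IL27ra KO, against 9.45, 14.7, 8.82, 8.55 and 11.8 FPKM in WT. Only IL27ra KO replicate 2 reached into the WT range, and the lowest 3 values were IL27ra KO libraries (log2 change -0.36, SE 0.20, adjusted p = 0.441). A processed copy listed as Tyms-ps had at most 0.49 FPKM in IL27ra KO and 0.95 FPKM in WT, so reads may be shared between both. Rrm2, the regulated subunit of ribonucleotide reductase, had 42.3, 57.9, 39 and 31.2 FPKM in IL27ra KO, against 29.4, 18.2, 38.5, 37.9 and 49.9 FPKM in WT. It was the replication gene with the most positive difference, with IL27ra KO replicate 2 highest and the library labelled WT replicate 2 lowest (log2 change 0.32, SE 0.28, adjusted p = 0.659). Rrm1, the large subunit, averaged 19.7 ± 3.33 FPKM in IL27ra KO and 20.4 ± 6.66 FPKM in WT (log2 change 0.01). The ratio of Rrm2 to Rrm1 was 1.92 to 2.45 in IL27ra KO libraries and 1.40 to 2.46 in WT libraries. Tk1, thymidine kinase, averaged 15.2 ± 1.75 FPKM in IL27ra KO and 18.0 ± 5.76 FPKM in WT (log2 change -0.19).

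Of the mitotic cyclins and their kinase, 3 of 4 lay above 0. Ccna2, the cyclin of S phase and early mitosis, had 20.6, 19.8, 17.9 and 15.2 FPKM in IL27ra KO, against 15.2, 13.9, 23.8, 16.4 and 14.9 FPKM in WT. WT replicate 3 was the highest of all 9, and the other WT libraries lay below IL27ra KO replicates 1, 2 and 3 (log2 change 0.14, SE 0.20, adjusted p = 0.825). Ccnb1, the main partner of CDK1, had 26.1, 28.4, 25.6 and 19.6 FPKM in IL27ra KO, against 14.8, 17.3, 24.4, 20.8 and 19.4 FPKM in WT. IL27ra KO replicates 1, 2 and 3 lay above every WT library and IL27ra KO replicate 4 lay inside their range (log2 change 0.36, SE 0.20, adjusted p = 0.442). Cdk1 had 14.8, 18.7, 13.2 and 11.2 FPKM in IL27ra KO, against 13.2, 15.9, 13.8, 13.7 and 9.41 FPKM in WT. The groups overlapped, with IL27ra KO replicate 2 highest and WT replicate 5 lowest (log2 change 0.12, SE 0.20, adjusted p = 0.86).

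The second B-type cyclin, Ccnb2, pointed the other way, averaging 16.8 ± 3.27 FPKM in IL27ra KO and 24.8 ± 10.4 FPKM in WT (log2 change -0.48, adjusted p = 0.414). Its highest WT value, 43.15 FPKM, came from the library labelled WT replicate 2. With that library left out, WT averaged 20.2 ± 1.71 FPKM. The log2 change of Ccnb2 was then -0.26 (limma adjusted p = 0.471), smaller but still below 0. The ratio of Ccnb1 to Ccnb2 was 1.24 to 1.66 in IL27ra KO libraries. In WT libraries it was 0.76, 0.40, 1.34, 0.99 and 0.88 in replicates 1 to 5, so only WT replicate 3 reached the IL27ra KO range. The ratio was picked after its values were seen and was not tested.

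All 5 genes of the mitotic kinases and the spindle checkpoint lay above 0, with a median log2 change of 0.32. Aurkb, the kinase of the chromosomal passenger complex, had 13.6, 13.5, 8.04 and 8.53 FPKM in IL27ra KO, against 6.49, 10.1, 13.7, 12.4 and 9.54 FPKM in WT. IL27ra KO replicates 1 and 2 were near the WT maximum and replicates 3 and 4 near the WT minimum (log2 change 0.06, SE 0.24, adjusted p = 0.948). Plk1, which drives mitotic entry and spindle assembly, had 11.9, 9.17, 11.8 and 10.3 FPKM in IL27ra KO, against 5.37, 7.8, 12.2, 14.3 and 6.17 FPKM in WT. WT replicates 3 and 4 lay above all IL27ra KO libraries, and WT replicates 1 and 5 and the library labelled WT replicate 2 lay below them all (log2 change 0.29, SE 0.26, adjusted p = 0.677). Aurka, the centrosomal kinase, had 6.66, 5.99, 7.02 and 7.1 FPKM in IL27ra KO, against 5.3, 4.39, 3.6, 6.49 and 4.2 FPKM in WT. Only WT replicate 4 reached the IL27ra KO range (log2 change 0.43, SE 0.19, adjusted p = 0.297), and adjusted p ran from 0.0410 to 0.572 over the alternatives. The checkpoint kinase gene Bub1 and the checkpoint gene Bub1b had log2 changes of 0.48 and 0.32, with adjusted p of 0.564 and 0.614. Bub1 ran over 4.90 to 8.24 FPKM in IL27ra KO and 1.78 to 10.7 FPKM in WT.

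The partners of Aurora B in the passenger complex had small differences of either sign. Birc5, survivin, had 22.8, 31.7, 25.1 and 23.1 FPKM in IL27ra KO, against 19.8, 35.7, 20.8, 26.2 and 22.7 FPKM in WT. The highest value was the library labelled WT replicate 2 and the IL27ra KO values lay inside the WT range (log2 change 0.06, SE 0.21, adjusted p = 0.943). Cdca8, borealin, averaged 7.96 ± 0.36 FPKM in IL27ra KO and 9.68 ± 2.82 FPKM in WT (log2 change -0.22).

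Cdc20 and Ube2c serve the anaphase-promoting complex, as its activator and as its ubiquitin-conjugating enzyme. Cdc20 had 14.2, 12.5, 10.6 and 9.52 FPKM in IL27ra KO, against 8.9, 18.5, 13.4, 9.8 and 11.7 FPKM in WT. The groups overlapped, apart from the library labelled WT replicate 2, which was highest (log2 change -0.06, SE 0.22, adjusted p = 0.945). Ube2c averaged 44.5 ± 6.48 FPKM in IL27ra KO and 38.8 ± 13.0 FPKM in WT (log2 change 0.24).

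Among the centromere and spindle genes 4 of 6 lay below 0. Cenpa, the centromeric histone H3 variant, had 15.7, 17.1, 20 and 17.6 FPKM in IL27ra KO, against 19.6, 65.9, 13.2, 20.7 and 31 FPKM in WT. The library labelled WT replicate 2 had 3.11 times the mean of the other WT libraries, and the IL27ra KO values lay inside the range of those others (log2 change -0.53, SE 0.35, adjusted p = 0.547). Stmn1, stathmin, which takes microtubules apart, had 27.4, 29.8, 19.7 and 34.2 FPKM in IL27ra KO, against 27.8, 73.9, 39.8, 44.6 and 39.1 FPKM in WT. WT replicate 1 lay inside the IL27ra KO range and the other WT libraries above it (log2 change -0.63, SE 0.26, adjusted p = 0.259). Leaving out the library labelled WT replicate 2, the log2 change was -0.44 (adjusted p = 0.289), and over the alternatives adjusted p ran from 0.130 to 0.893. The kinesins Cenpe and Kif11 and the spindle proteins Nusap1 and Tpx2 had log2 changes of -0.33, 0.13, 0.07 and -0.09.

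The 3 chromatin genes of late cycle all lay below 0. Mki67, whose product Ki-67 coats mitotic chromosomes and is the standard stain for cycling cells, had 8.25, 8.05, 7.65 and 9.74 FPKM in IL27ra KO, against 8.08, 11.2, 12.2, 12.5 and 9.49 FPKM in WT. IL27ra KO replicates 2 and 3 lay below every WT library, and WT replicates 1 and 5 lay inside the IL27ra KO range (log2 change -0.3, SE 0.18, adjusted p = 0.503). Top2a, which untangles sister chromatids, had 21.4, 27.5, 19.7 and 17.9 FPKM in IL27ra KO, against 24.1, 10.6, 31.6, 33.7 and 20.1 FPKM in WT. WT replicates 3 and 4 were highest and the library labelled WT replicate 2 lowest (log2 change -0.06, SE 0.29, adjusted p = 0.951). Hmgb2, a chromatin protein of cycling cells, had 25.8, 33.9, 28.1 and 41.4 FPKM in IL27ra KO, against 50.6, 106, 43.7, 41 and 45.6 FPKM in WT. IL27ra KO replicate 4 lay just above WT replicate 4, and the other IL27ra KO libraries lay below all WT libraries (log2 change -0.73, SE 0.27, adjusted p = 0.195). Without the library labelled WT replicate 2 its log2 change was -0.49 (adjusted p = 0.141), against adjusted p of 0.0389 to 0.890 over the alternatives.

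Read per library, the mean log2(FPKM + 1) of the 16 replication genes was 3.75, 4.07, 3.71 and 3.83 in IL27ra KO replicates 1 to 4, against 4.09, 3.77, 4.25, 4.01 and 4.27 in WT replicates 1 to 5. IL27ra KO replicate 2 lay among the WT libraries, and the library labelled WT replicate 2 lay among the IL27ra KO libraries. The mean of the 22 mitotic genes was 3.72, 3.80, 3.62 and 3.58 in IL27ra KO, against 3.56, 3.84, 3.77, 3.75 and 3.64 in WT. Replication means averaged 3.84 ± 0.16 in IL27ra KO and 4.08 ± 0.20 in WT, and mitotic means 3.68 ± 0.10 in IL27ra KO and 3.71 ± 0.11 in WT (SD, n = 4 and 5).

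The difference between the 2 waves inside a library, replication minus mitotic, was 0.03, 0.27, 0.10 and 0.25 in IL27ra KO, against 0.54, -0.07, 0.48, 0.26 and 0.63 in WT. It averaged 0.16 ± 0.12 in IL27ra KO and 0.37 ± 0.28 in WT, a difference of -0.21 that is smaller than the WT SD. Without the library labelled WT replicate 2, WT averaged 0.48 ± 0.16 and the difference was -0.31; WT replicate 4 then still lay inside the IL27ra KO range. Over all alternatives the difference ran from -0.31 to -0.14. Some of these, such as the robust fit, library weights and replicate block, cannot change it, since it is taken from plain group means. Since the genes were chosen with results in view, no p is given for it.

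**Figure D3:**
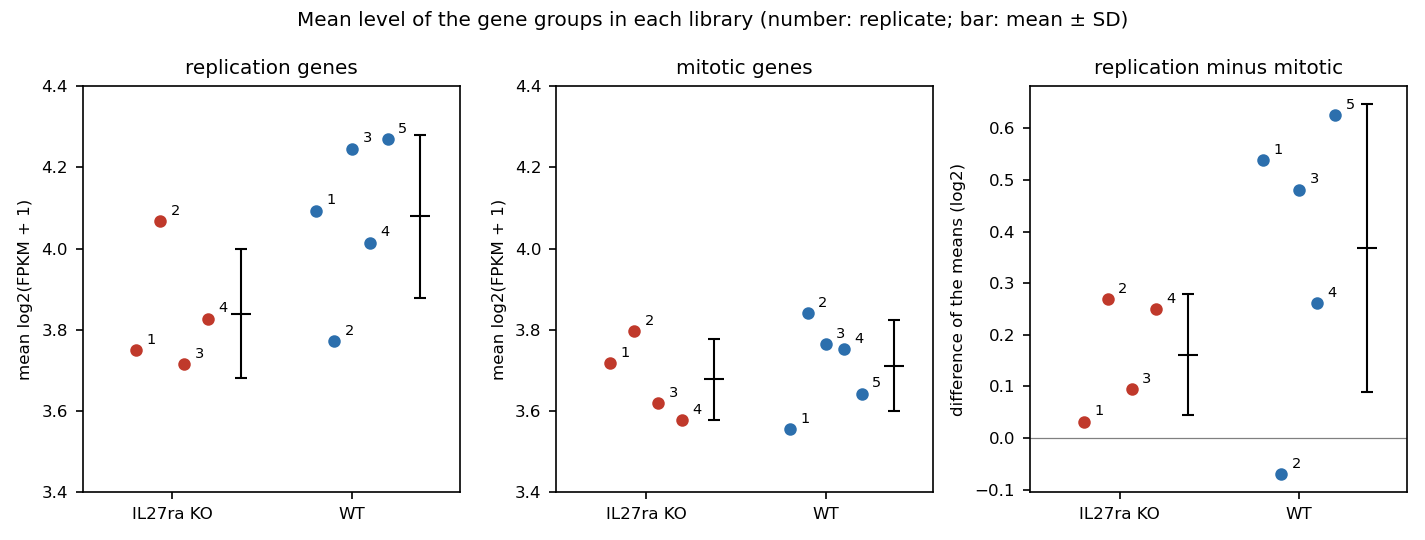
Mean log2(FPKM + 1) of the 16 replication genes (left) and the 22 mitotic genes (middle) and their difference (right) in each library, IL27ra KO in red and WT in blue, numbers for replicates, bars for mean ± SD. The library labelled WT replicate 2 is the lowest WT library for replication genes (3.77), the highest for mitotic genes (3.84) and the only one with a difference below 0 (-0.07).

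The library labelled WT replicate 2 departed from the other WT libraries by transcript length. Among the 5 WT libraries it was the highest for 14 and the lowest for 16 of the 38 genes, 30 extremes in all, whereas the other WT libraries held 9 to 15 each. Genes where it was highest had a median transcript length of 1524.5 bases and genes where it was lowest 3376 bases. Of 12 genes shorter than 2000 bases it lay above the mean of the other WT libraries for 10, by a median of 0.72 log2 units; of 26 longer genes it lay below for 20, with a median of -0.37. Across the 38 genes its deviation and length had a Spearman rho of -0.62, given as a description since genes share the library. Over the 10315 tested genes with a length, rho was -0.56, so the pattern was not limited to cell cycle genes. The other WT libraries had rho of -0.10 to 0.49 over the 38 genes and the IL27ra KO libraries -0.07 to 0.06. Over the 10315 genes these ranges were -0.03 to 0.42 and -0.10 to 0.04. Each library was set against the mean of the others in its group. For the other WT libraries that mean includes the library labelled WT replicate 2, so their rho is not independent of its trend.

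Much of the WT spread lay in this library. The median coefficient of variation of the 38 genes was 16.6% in IL27ra KO and 31.1% in WT, and 18.7% in WT without it. Leaving it out changed the call of 1 of the 38 genes, Mcm6. With each library's length trend removed, 0 replication and 0 mitotic genes passed in limma, 3 and 4 at an unadjusted p under 0.05, and the medians were -0.26 and 0.05.

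**Figure D4:**
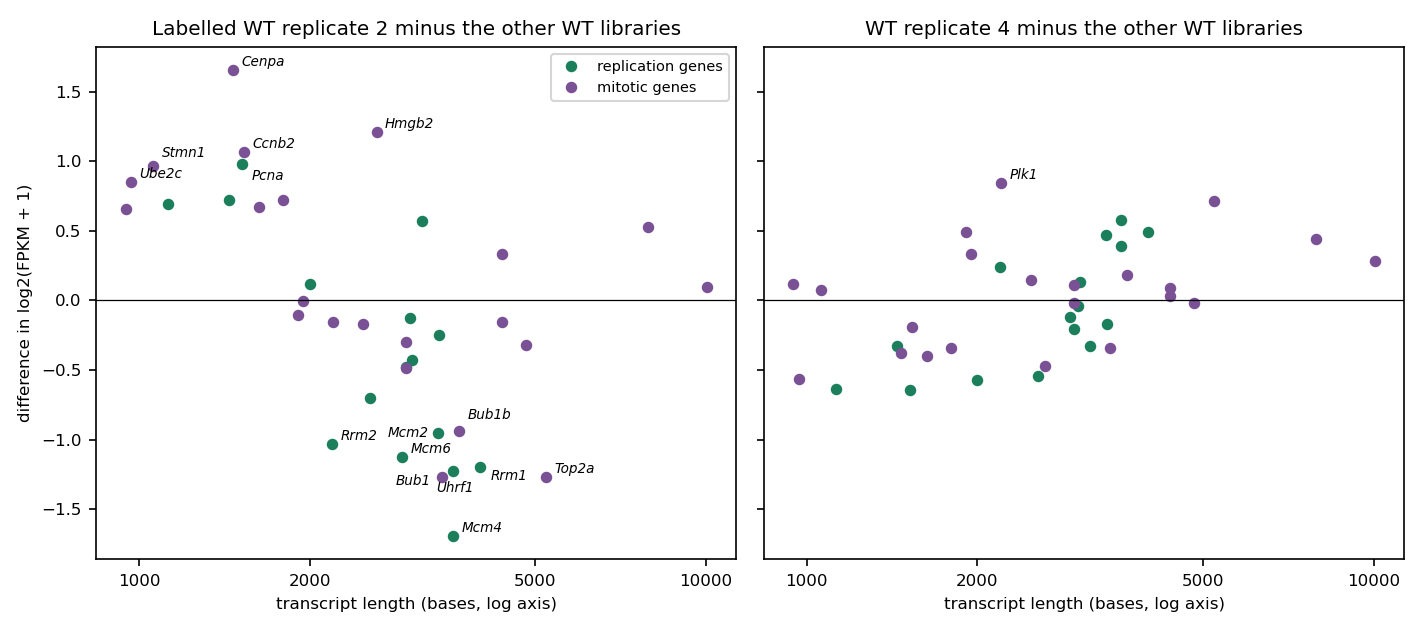
Difference in log2(FPKM + 1) between 1 WT library and the mean of the other WT libraries (vertical axis) against transcript length in bases (horizontal log axis) for the 38 genes, for the library labelled WT replicate 2 (left) and WT replicate 4 (right). On the left short transcripts such as Cenpa lie above 0 and longer ones such as Mcm4 and Top2a below it (rho -0.62). On the right, where the mean of the others includes the library labelled WT replicate 2, rho is 0.49.

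By promoter words, 5 genes had an E2F word and no CHR word, namely Mcm3, Mcm5, Mcm6, Cdc6 and Uhrf1. All 5 are replication genes and had a log2 change below 0, with a median of -0.25. The 14 genes with a CHR word and no E2F word, mitotic genes apart from Mcm2, had a median of -0.04 and 8 below 0. This grouping therefore largely repeats the division by role. The 10 genes with neither word had a median of -0.09 and 5 below 0. Mcm7 and Cdk1, the 2 genes with both words, had a median of -0.06 and 1 below 0. For the 7 genes without a window, Gmnn among them, the median was -0.13 and 5 lay below 0. As none of these genes passed the threshold, the groups are described only.

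Wider lists put the 38 genes in context. Of 48 further replication genes, such as polymerase and origin subunits, 47 were tested and 43 lay below 0, with a median of -0.33. Of these 2 fell, against 1.11% of all tested genes. At an unadjusted p under 0.05, 10 of the 47 were lower, against 15.1% of all genes in either direction. Dut, which clears dUTP before DNA synthesis, had 9.25, 9.44, 9.94 and 9.4 FPKM in IL27ra KO, against 13.8, 28, 19.6, 19.5 and 21.4 FPKM in WT. The groups did not overlap and the IL27ra KO values spanned less than 1 FPKM (log2 change -1.0, SE 0.20, adjusted p = 0.011). That call held with any 1 library left out, with adjusted p of at most 0.0463, and was lost when libraries were scaled to the CD8 T cell markers (log2 change -0.34, adjusted p = 0.352). Since that scaling raised the median of all genes to 0.61, Dut lay at -0.95 relative to all genes there, and at -1.02 without it. Pole, the catalytic subunit of the leading-strand polymerase, had 1.82, 1.89, 1.43 and 1.17 FPKM in IL27ra KO, against 2.43, 3.52, 5.76, 5.38 and 3.27 FPKM in WT. The groups did not overlap (log2 change -0.94, SE 0.23, adjusted p = 0.0351). The call held only without WT replicate 1 or the library labelled WT replicate 2 among the 9 fits with 1 library left out; without each of IL27ra KO replicates 1 to 4 and WT replicates 3, 4 and 5 adjusted p was 0.0558 to 0.122.

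Of 61 further mitotic genes 59 were tested, 36 lay below 0 and the median was -0.09. Ckap2, a spindle-associated protein gene, fell, as 1 of the 59, against 1.11% of all tested genes. It had 1.59, 2.25, 1.21 and 2.1 FPKM in IL27ra KO, against 3.44, 3.39, 5.05, 2.79 and 4.66 FPKM in WT. The groups did not overlap (log2 change -0.8, SE 0.21, adjusted p = 0.0482). The call was lost without IL27ra KO replicate 1, 2 or 3 or WT replicate 1, 3 or 5, with adjusted p of 0.0784 to 0.2. Both calls were also lost without the filter on low genes (Pole adjusted p = 0.0884, Ckap2 0.108) and after scaling to the total without Rn45s (0.121 and 0.135), and that of Ckap2 with either other pseudocount or a robust fit (0.0524 to 0.0564). Scaled to the CD8 T cell markers, 4 of the 47 replication genes and 2 of the 59 mitotic genes lay below 0, and Pole and Ckap2 did not pass (adjusted p = 0.29 and 0.395), with list medians of -0.34 and -0.11 relative to all genes.

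Genes of cell cycle entry had a median log2 change of 0.00 over 17 of 19 tested, with 1 fall, against 1.11% of all tested genes. Cdk6, a kinase that with D-type cyclins opens the cycle in T cells, had 7.86, 9.83, 8.76 and 7.92 FPKM in IL27ra KO, against 17.4, 18.4, 30.7, 22.6 and 29.3 FPKM in WT. The highest IL27ra KO value was well below the lowest WT value (log2 change -1.33, SE 0.21, adjusted p = 0.00262). It passed with any 1 library left out, with adjusted p of at most 0.0138, and missed the threshold when scaled to the CD8 T cell markers (log2 change -0.67, adjusted p = 0.126), where it lay at -1.28 relative to all genes. Its partner kinase gene Cdk4 averaged 47.7 ± 6.95 FPKM in IL27ra KO and 50.2 ± 5.09 FPKM in WT (log2 change -0.08). The cyclin genes Ccnd1, Ccnd2 and Ccnd3 had log2 changes of 0.30, 0.22 and 0.23 and adjusted p of at least 0.593. Myc, a growth regulator, had 19.6, 21.6, 23.4 and 26.5 FPKM in IL27ra KO, against 33.1, 33.8, 47.8, 35.7 and 17.7 FPKM in WT. IL27ra KO values lay inside the WT range because WT replicate 5 was lowest of all (log2 change -0.48, SE 0.25, adjusted p = 0.398). E2f1 and Foxm1, factors of the 2 waves, had log2 changes of 0.30 and 0.21 with adjusted p of 0.732 and 0.799.

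Among CDK inhibitors and genes of quiescence, 21 of 24 were tested, the median was 0.09 and 1 rose, against 3.13% of all tested genes. At an unadjusted p under 0.05, 4 of the 21 were higher, against 15.1% of all genes in either direction. Klf2, a transcription factor of resting and recirculating T cells, had 27.7, 27.4, 20.4 and 18.5 FPKM in IL27ra KO, against 9.22, 7.76, 10.1, 15 and 8.01 FPKM in WT. The groups did not overlap (log2 change 1.17, SE 0.22, adjusted p = 0.00768), and the call held with any 1 library left out, with adjusted p of at most 0.0389. Cdkn1a, which encodes the inhibitor p21, had 57.3, 30.3, 55.4 and 26.1 FPKM in IL27ra KO, against 22.7, 24.9, 12.8, 10.3 and 30.3 FPKM in WT. IL27ra KO replicates 1 and 3 lay above every WT library, and replicates 2 and 4 lay inside the WT range (log2 change 1.05, SE 0.33, adjusted p = 0.11). Cdkn1a passed with library quality weights (log2 change 1.15, adjusted p = 0.0271) and when scaled to the CD8 T cell markers (log2 change 1.73, or 1.13 relative to all genes, adjusted p = 0.00911). Over the other alternatives it did not pass, with adjusted p of up to 0.352, and 5 genes of the list were higher under the CD8 scaling. The same replicates 1 and 3 had the highest mean log2 level of macrophage markers, 5.39 and 5.45, against 4.99 and 4.13 in replicates 2 and 4; the part of those cells in the Cdkn1a level was not tested. Cdkn1b, which encodes p27, Cdkn2c and the antiproliferative gene Btg1 had log2 changes of -0.19, 0.10 and 0.33. Cdkn2a, with a mean of 0.09 FPKM, lay below the filter and was not tested. It was listed at 0 in all IL27ra KO libraries and at up to 0.47 FPKM in WT.

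**Figure D5:**
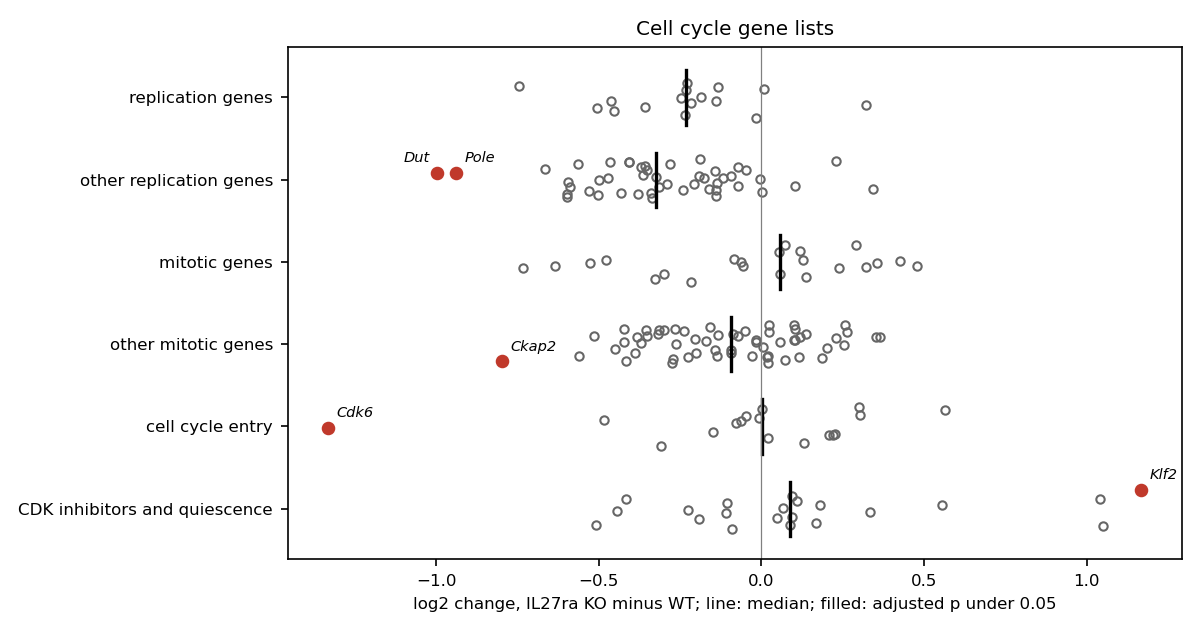
Log2 change between IL27ra KO and WT for each tested gene of 6 cell cycle lists, with a vertical line at each list's median and filled red points for adjusted p under 0.05. Both replication lists centre below 0 (medians -0.23 and -0.33), and the filled points are Dut and Pole, Ckap2, Cdk6 and Klf2.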

How the data were processed

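Gene expression was measured in bulk CD8+ T cells by an adaptation of SMART-Seq 2, a full-length method with PCR and without molecular identifiers, per the labels' protocols. The authors deposited 1 table of gene-level RSEM values as TMM-normalized FPKM, per the labels, with 0 columns of other samples. The submitters' processing notes name TopHat, RSEM, DESeq and build mm9; no version is given.

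The deposited FPKM values were transformed to log2(FPKM + 1), filtered at a mean of 1 FPKM over 9 libraries and fitted with limma 3.58.1 in R 4.3.3 (lmFit, eBayes with a trend), IL27ra KO minus WT, with Benjamini-Hochberg adjustment over all 10374 genes. A fold change on this scale understates low genes. The script was checked on simulated data. The members, lists and tests were chosen with earlier results of these data known.

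Transcript lengths came from GENCODE M21 and covered 23024 symbols, and promoters from RefSeq matched 31 of the 38 genes. The genome build of both is not that of the files, so lengths are approximate. Low values clustered at whole multiples of 1 fragment, 58.6% to 62.1% of them within 0.1 of one, where an even spread gives 20%, so fragment numbers are estimates and no count test was run. Rn45s, the ribosomal RNA precursor, took 23.9% to 53.8% of summed FPKM.

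The fit was repeated with a pseudocount of 0.1 or 5, without the filter or with one at 5 FPKM, after scaling by quantiles, medians, CD8 markers or totals without Rn45s, with robust estimation, with library weights, with a replicate block, and leaving out each library. Removal of each library's length trend was added after the data had been seen. All 38 genes are named, and values in every library are given for 20 of them picked by a fixed list. Of the other lists, genes past the threshold (at most 6 a list, by smallest p) and a fixed set of regulators are named; some genes this rule covers are not reported here. Per-library values of Mcm6, Aurka, Hmgb2, Myc and Cdkn1a were added after their values were seen.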

Additional observations from a re-analysis of the deposited data

Results flagged for a closer look

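Library values were compared within each group of 4 or 5 for the 38 genes and the other named cell cycle genes, and 7 of 114 such groups had a highest or lowest library whose gap to its neighbour passed Dixon's 95% limit; chance alone flags about 1 in 20 groups, here about 6. Ube2c was low in IL27ra KO replicate 4, at 34.8 FPKM, while the other IL27ra KO libraries had 47.2 to 48.6 FPKM. Of these, 3 fell on the library labelled WT replicate 2: Ccnb2 at 43.2 FPKM beside 18.2 to 22 FPKM in the other WT libraries, Hmgb2 at 105.5 FPKM beside 41.0 to 50.6 FPKM, and Nusap1 at 3.35 FPKM beside 4.89 to 5.51 FPKM. Ccna2 was high in WT replicate 3, at 23.8 FPKM beside 13.9 to 16.4 FPKM. E2f1 was low in WT replicate 1, at 0.38 FPKM beside 1.93 to 2.51 FPKM, and Foxm1 was high in WT replicate 4, at 6.35 FPKM beside 1.78 to 3.03 FPKM.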

How the results depend on the processing

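The count of all genes past the threshold, 440, was 219 with a filter at 5 FPKM, which tests fewer genes, 1245 scaled to the CD8 T cell markers, 974 with library quality weights (632 higher and 342 lower) and 273 with the replicate block; with 1 library left out it was 226 to 632. The count of replication genes was 1 with weights (Mcm6, log2 change -0.69, adjusted p = 0.0321) and 0 to 1 with 1 library left out. The count of mitotic genes was 1 scaled to the CD8 T cell markers (Aurka, log2 change 1.02, adjusted p = 0.0410) and 1 with weights (Hmgb2, log2 change -0.63, adjusted p = 0.0389), and 0 with any 1 library left out. Under the CD8 scaling the medians were 0.42 for replication and 0.68 for mitotic genes. The cause of these changes was not tested. Relative to all genes, the replication median ran from -0.35 to -0.18 and the mitotic median from -0.07 to 0.11 over 21 alternatives. Of 793 values of single members under the alternatives, 751 moved by less than 1 SE, 38 moved further and 4 passed the threshold newly.

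Replicate numbers showed no sign of pairing: deviations of same-numbered libraries correlated at 0.003, -0.008, -0.066 and -0.147, and those of other pairs at -0.072 to 0.126. So few correlations cannot decide whether same-numbered libraries were handled together. With the replicate block 0 of the 38 genes passed, and of the other named genes Cdk6 kept its call while Dut (adjusted p = 0.0641) and Klf2 (adjusted p = 0.0668) lost it. Pole and Ckap2 also lost it (adjusted p = 0.111 and 0.236). At roughly 1860000 to 4370000 fragments per library, the lowest value of a member stands on about 4 fragments (Cdc6), so low genes are the least certain.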
